A study of Mus musculus with 2 samples.

Results

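Bone morphogenetic proteins (BMPs) are secreted signals, and the genes described here are 6 of their ligands (Bmp2, Bmp3, Bmp4, Bmp5, Bmp6 and Bmp7), 3 of their receptors (Bmpr1a, Bmpr1b and Bmpr2) and the secreted inhibitor noggin (Nog). They were chosen by gene symbol, and all 10 had a row among the 32285 genes counted. The cells were dissociated from E16.5 mouse corticoseptal boundary, the midline tissue where callosal axons cross. WT and Tcf4f/f;Emx1Cre embryos (the conditional knockout, cKO) gave 1 library each. In the latter both floxed copies of Tcf4 meet a Cre driven by Emx1, a gene of dorsal telencephalic progenitors. The labels do not give the number of embryos behind a library, so no spread between animals could be measured and no test between genotypes exists.

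A BMP dimer binds a complex of type I receptors (Bmpr1a, Bmpr1b) and type II receptors (Bmpr2), which phosphorylates SMAD proteins that then act on genes such as the Id family. Noggin binds BMPs outside the cell and keeps them from the receptors. At the dorsal midline of the forebrain, the roof plate, choroid plexus and cortical hem are known sources of BMPs, and cortical progenitors are known to receive them.

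Transcripts were counted as UMIs (unique molecular identifiers), 116998498 in WT and 121321247 in cKO. The cells kept numbered 8634 in WT and 10142 in cKO, their median UMI totals were 9660 and 8152, and 21 cell barcodes occurred in both libraries. Cells formed 34 clusters, of which 26 went into 9 named classes, and their defining markers were present in each. The exceptions were Neu4 in oligodendrocyte progenitors and Ccdc153, Tmem212 and Prlr in the cluster led by the choroid plexus gene Ttr, which were at 0. Tcf4 itself was at 1499 CPM (counts-per-million, out of all UMIs) in all WT cells and 1139 CPM in all cKO cells. The labels do not name the deleted exons, so a count made at the 3' end need not follow the deletion.

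Levels below are CPM over all UMIs of a class in a library, with exact Poisson intervals, and ratios are cKO over WT with exact binomial intervals, all at 95%. These intervals cover counting error only. A gene is said to pass the limit when it differed at least 1.5-fold on the log2(CPM + 5) scale and had at least 20 UMIs over both libraries. The share of all genes passing the limit in the same class is given as the background.

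Bmp4 was the ligand most tied to 1 small source, the cells led by Ttr that are called here ependymal or choroid plexus cells. That name is the one of their marker list. Their leading genes, among them Ttr, Folr1, Kcne2 and Clic6, are those of choroid plexus, so choroid plexus is the closer name. Bmp4 (ENSMUSG00000021835, mm10 chromosome 14, 46383520 to 46390669, minus strand) is a classical dorsal midline BMP. These cells made up 0.405% of WT and 0.237% of cKO cells, that is 35 and 24 cells. They nevertheless held 83 of 138 Bmp4 UMIs in WT (60.1%, 51.5% to 68.4%) and 32 of 64 in cKO (50%, 37.2% to 62.8%). The level there was 104 CPM in WT (83.2 to 129) and 54.2 CPM in cKO (37.1 to 76.5). These intervals do not overlap, and the ratio was 0.519 (0.334 to 0.789). Of all genes in these cells, 23.6% passed the limit on the lower side and 3.93% on the higher side. The median log2 ratio of all genes there was -0.27. In glutamatergic neurons Bmp4 was at 0.0505 CPM in WT against 0.0874 CPM in cKO. In droplets without a cell, which measure free RNA, it was at 4.12 CPM in WT compared with 2.11 CPM in cKO.

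Bmp6 had a different set of sources. Bmp6 (ENSMUSG00000039004, chromosome 13, 38345107 to 38500302, plus strand) is a ligand of the same subgroup as Bmp5 and Bmp7. Its largest holder in both libraries was cluster 3, an unnamed cluster led by Rspo1 and Prok2 with the ciliary genes Foxj1 and Rsph1, which had 43 of 120 UMIs in WT and 20 of 62 in cKO. The level in cluster 3 was 7.37 CPM in WT (5.33 to 9.92) and 5.56 CPM in cKO (3.39 to 8.58), with overlapping intervals. In the ependymal or choroid plexus cells Bmp6 was at 12.6 CPM in WT (6.03 to 23.1) and 27.1 CPM in cKO (15.5 to 44.0), from 10 and 16 UMIs. Cluster 19, glutamatergic neurons led by Cyp26b1, held 23 Bmp6 UMIs in WT and 3 in cKO, or 5.82 CPM (3.69 to 8.73) and 1.46 CPM (0.301 to 4.27).

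The promoters of Bmp4 and Bmp6 are shown because these ligands passed the limit in opposite directions in the same cells, and because TCF4 is a bHLH protein that binds E-boxes, CANNTG in letters. For Bmp6 the direction rests on 10 UMIs in WT and 16 in cKO, with overlapping intervals. The windows run from 250 bases before to 50 bases after the transcript start in RefSeq (GRCm38.p6), which can differ from the gene bounds above. E-boxes are in capitals; the motif reads the same on either strand, and no 2 of them overlap here. Bmp4 lies at chr14:46390620-46390919 on the minus strand and Bmp6 at chr13:38345466-38345765 on the plus strand.
Bmp4: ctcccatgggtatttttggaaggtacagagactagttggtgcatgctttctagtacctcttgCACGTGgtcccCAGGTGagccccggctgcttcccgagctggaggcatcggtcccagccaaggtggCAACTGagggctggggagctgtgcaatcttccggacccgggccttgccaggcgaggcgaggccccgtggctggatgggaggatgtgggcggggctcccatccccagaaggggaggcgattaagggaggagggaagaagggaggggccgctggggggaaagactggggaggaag
Bmp6: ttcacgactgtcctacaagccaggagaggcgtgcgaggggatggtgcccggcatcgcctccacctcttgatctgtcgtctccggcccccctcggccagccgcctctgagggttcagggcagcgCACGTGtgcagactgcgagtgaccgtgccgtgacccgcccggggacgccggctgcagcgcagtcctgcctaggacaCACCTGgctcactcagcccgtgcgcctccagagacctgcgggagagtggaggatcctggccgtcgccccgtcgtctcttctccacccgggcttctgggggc
The Bmp4 window held 3 E-boxes and the Bmp6 window held 2. Of 32851 RefSeq promoter windows of 300 bases, 72.3% held at least 1 E-box and 39.6% at least 2, so holding several is common. Of the narrower form with C or G at both middle bases, each of these windows held 2, and 37.7% of all windows held at least 1. A match of letters is a description only, and whether TCF4 acts on either promoter in these cells was not tested. Windows were given for 6 of the 10 genes. Those of Bmp5, Bmpr1a and Bmpr2 held none, and those of Bmpr1b held 3, 0 and 1.

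**Figure D1:**
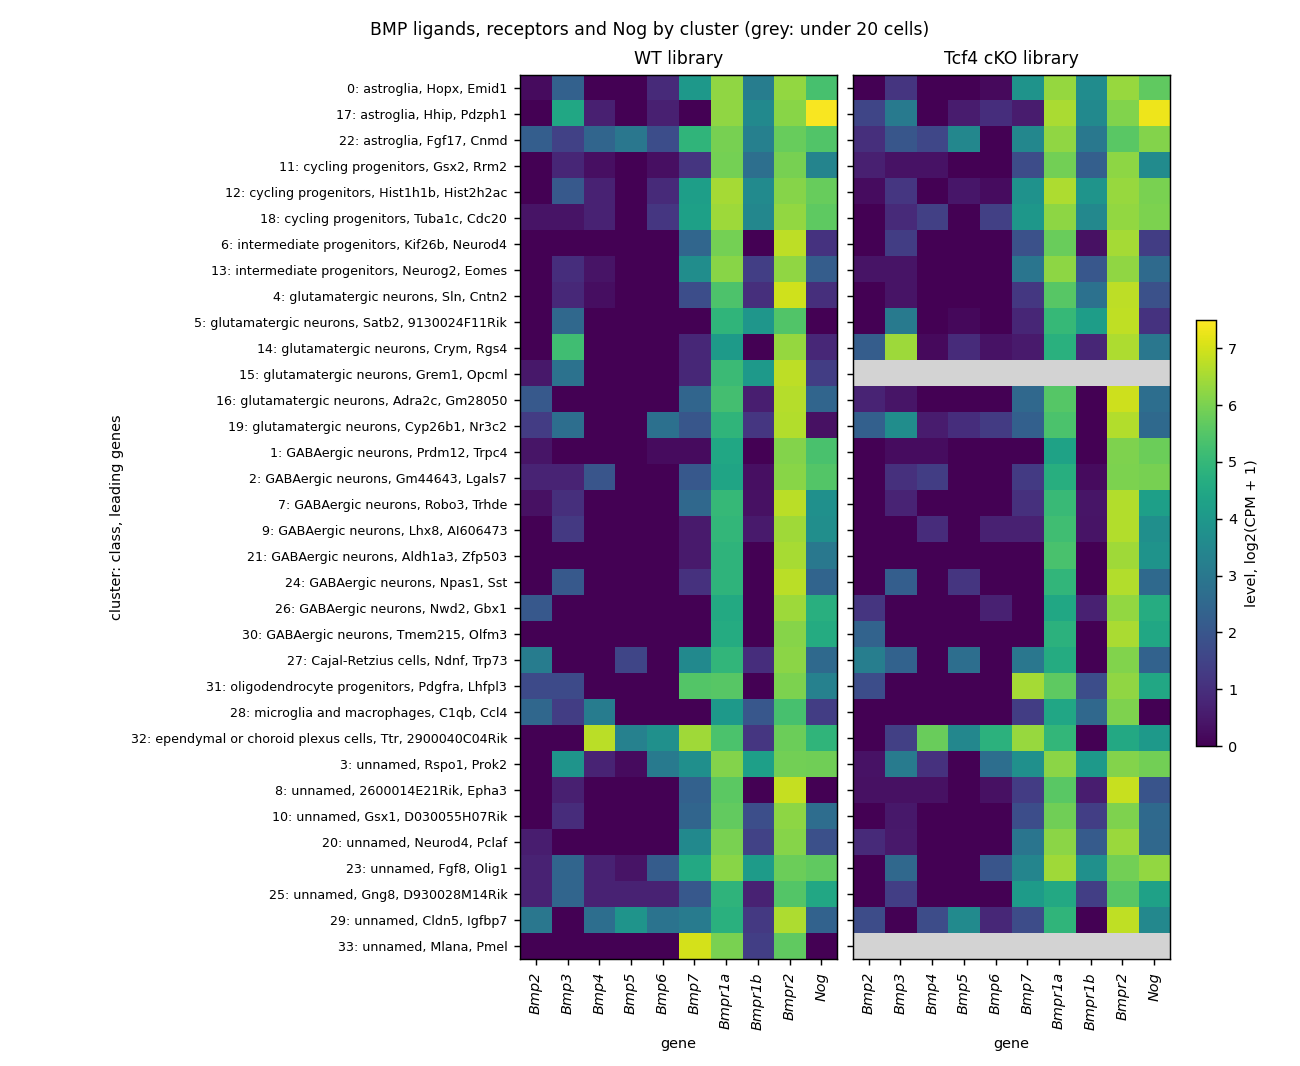
Level of each gene in each cluster as log2(CPM + 1), WT left and cKO right, with clusters of under 20 cells in grey; colours are to be compared down a column, within a gene. Bmp4 stands out in cluster 32 alone, Bmp3 in cluster 14, and Nog in cluster 17 (171 CPM in WT and 158 CPM in cKO).

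Bmp7 was the most widely spread ligand. Bmp7 (ENSMUSG00000008999, chromosome 2, 172868012 to 172940321, minus strand) had 836 UMIs in WT and 529 in cKO. Its level was 85.6 CPM in WT (66.4 to 108) and 79.6 CPM in cKO (58.5 to 106) in ependymal or choroid plexus cells. In oligodendrocyte progenitors it was 43.9 CPM (26.8 to 67.8) in WT compared with 89.5 CPM (63.0 to 123) in cKO, from 37 and 39 cells, and the ratio was 2.04 (1.15 to 3.71). Those cells and the choroid cells were the highest 2 classes in each library, and their intervals overlapped in both. Astroglia, that is radial glia and their astrocyte descendants, had 16.4 CPM in WT (14 to 19) and 10.6 CPM in cKO (8.70 to 12.8). Cycling progenitors held 12.1 and 10.7 CPM, and GABAergic neurons 1.86 CPM (1.31 to 2.56) and 0.618 CPM (0.329 to 1.06).

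The lower Bmp7 level of astroglia lay in 1 of their 3 clusters. Cluster 22 was led by Fgf17, with Fgf8 among its leading genes, 2 growth factors of the commissural plate at the rostral midline. In it Bmp7 was at 29.1 CPM in WT (23.3 to 36.0) and 10.1 CPM in cKO (4.84 to 18.6), from 85 and 10 UMIs. Cluster 0, led by Hopx and with Emx1 at 82.6 CPM in WT, held 14.8 and 13.5 CPM, a ratio of 0.910 (0.673 to 1.23). Without cluster 22, the Bmp7 ratio of astroglia was 0.938 (0.695 to 1.27). Cluster 22 had 291 WT and 112 cKO cells, its Fgf17 level was 501 CPM in WT and 206 CPM in cKO, and its Tcf4 level was 461 and 541 CPM. Cluster 23, unnamed cycling cells led by Fgf8, had Bmp7 at 22 CPM in WT (17.1 to 27.9) and 9.67 CPM in cKO (5.91 to 14.9). Cluster 3, which also held Fgf8 and Fgf17, had 12.3 and 12.5 CPM.

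A further part of the WT Bmp7 total came from cells almost confined to that library. Cluster 33, led by the melanocyte genes Mlana and Pmel, had 43 WT cells and 4 cKO cells. It held 78 of the 836 WT UMIs of Bmp7 at 129 CPM (102 to 160), and 2 UMIs in cKO. Over the 26 clusters with at least 50 cells in each library, 15 had at least 20 Bmp7 UMIs, and Bmp7 was lower in cKO in 11 of them and higher in 4. Such clusters share the same libraries and are not separate observations. Cluster 17, the septal astroglia with Six3 at 274 CPM and Emx1 at 2.28 CPM in WT, held no Bmp7 UMI in WT.

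Bmp3 was the 1 gene of the 10 to pass the limit over all cells. Bmp3 (ENSMUSG00000029335, chromosome 5, 98854415 to 98884396, plus strand) is known as a BMP that opposes the signals of others. In glutamatergic neurons it was at 6.06 CPM in WT (5.03 to 7.25), from 120 UMIs, and 28.3 CPM in cKO (26.2 to 30.6), from 648 UMIs. The ratio was 4.67 (3.84 to 5.73). It was the 1 BMP gene of the 10 to pass the limit in these neurons, where 1.41% of all genes passed on the higher side and 1.5% on the lower side.

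Most of these UMIs came from 1 cluster of neurons that was far larger in cKO. Cluster 14, led by Crym and Rgs4 and with Bmp3 among its leading genes although no BMP gene took part in the clustering, had 76 WT and 537 cKO cells. It held 47 Bmp3 UMIs in WT and 562 in cKO, which is 74.7% of all cKO Bmp3 UMIs. Within it the level was 36.1 CPM in WT (26.5 to 48.0) and 82.7 CPM in cKO (76.0 to 89.8). Clusters 5 and 15 also divided by library, with 22 and 586 WT cells and 885 and 6 cKO cells. Without clusters 5, 14 and 15, glutamatergic neurons held 26 Bmp3 UMIs in each library, and the ratio was 1.34 (0.746 to 2.40). After thinning every cell to 3341 UMIs, Bmp3 was found in 10.5% of WT cells of cluster 14 (4.66% to 19.7%) and 19.9% of its cKO cells (16.6% to 23.6%), and in 0.0870% and 0.225% of GABAergic neurons.

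In astroglia Bmp3 was lower in cKO. Astroglia held 6.25 CPM in WT (4.82 to 7.97) and 2.63 CPM in cKO (1.73 to 3.82). The ratio was 0.420 (0.258 to 0.667), just short of the limit on the log2(CPM + 5) scale. Without cluster 22 astroglia held 8.02 and 2.58 CPM, a ratio of 0.322 (0.192 to 0.525), which passed the limit. Cluster 17 held 21.1 CPM in WT (14.8 to 29) and 7.36 CPM in cKO (4.12 to 12.1), which passed it. Cycling progenitors held 1.62 CPM (0.978 to 2.54) and 0.879 CPM (0.439 to 1.57), and intermediate progenitors 0.459 and 1.00 CPM from 3 and 7 UMIs, with overlapping intervals in each. Cluster 0 held 4.02 and 1.24 CPM, and cluster 3 held 13.9 and 7.78 CPM, both short of the limit. Free RNA held Bmp3 at 2.88 CPM in WT against 8.43 CPM in cKO, and an estimated 2.15% and 1.14% of a neuron's UMIs were free RNA. With free RNA subtracted, the log2 ratio was 1.59 in glutamatergic neurons and -0.583 in astroglia, against 1.59 and -0.561 without.

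Bmp2 and Bmp5 were sparse in every class. Bmp2 (ENSMUSG00000027358, chromosome 2, 133552159 to 133562885), the closest relative of Bmp4, had 62 UMIs in each library. Its largest value was in Cajal-Retzius neurons, which secrete reelin at the surface of the cortex, with 7.93 CPM in WT (3.43 to 15.6) and 8.24 CPM in cKO (3.03 to 17.9), from 8 and 6 UMIs. These intervals overlapped those of the next class, microglia and macrophages in WT and oligodendrocyte progenitors in cKO. Cluster 14 held no Bmp2 UMI in WT, for which the interval reaches 2.83 CPM, and 25 in cKO, or 3.68 CPM. Bmp5 (ENSMUSG00000032179, chromosome 9, 75775364 to 75900310) had 52 and 47 UMIs. Its largest holders in WT were cluster 22 with 20 UMIs (10 in cKO) and cluster 29 of endothelial and mural genes (Cldn5, Rgs5) with 20 (14 in cKO). The ependymal or choroid plexus cells followed with 7 (6 in cKO). These counts are not scaled to the size of the clusters. Cluster 22 had 291 WT and 112 cKO cells, and its Bmp5 level was 6.86 CPM in WT and 10.1 CPM in cKO. In the ependymal or choroid plexus cells it was 8.81 and 10.2 CPM, and the level of cluster 29 is not given here. Glutamatergic neurons held 0 Bmp5 UMIs in WT and 9 in cKO, 6 of them in cluster 14.

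**Figure D2:**
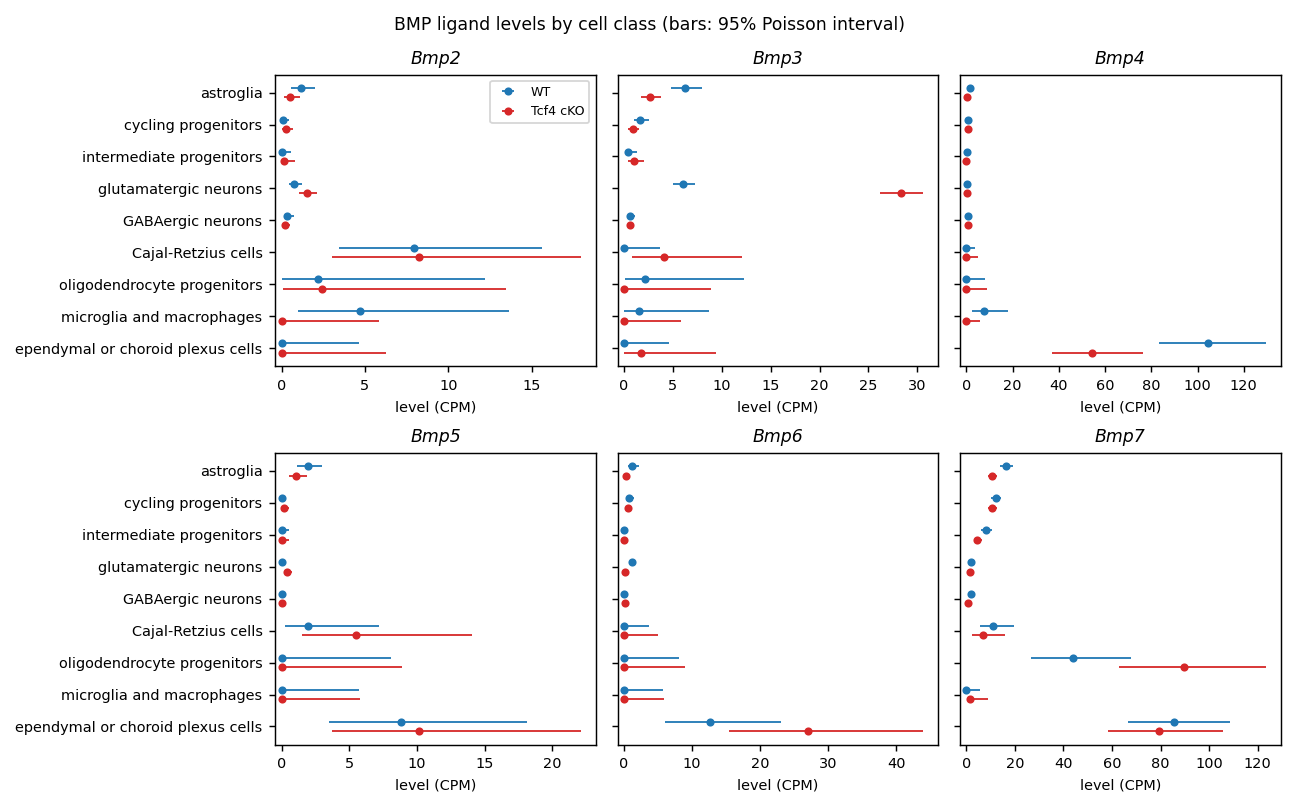
Ligand levels in CPM (linear axes that differ by panel) for the 9 named classes, WT in blue and cKO in red; points are the 2 libraries and bars are 95% Poisson intervals. Pairs whose library intervals stand apart include Bmp3 in glutamatergic neurons (6.06 and 28.3 CPM) and Bmp4 in ependymal or choroid plexus cells (104 and 54.2 CPM). Bmp3 (6.25 and 2.63 CPM) and Bmp7 (16.4 and 10.6 CPM) in astroglia are also among them. The intervals overlap for Bmp7 in oligodendrocyte progenitors (43.9 and 89.5 CPM).

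The ligands as a group were held by many classes. Of the UMIs of all 6 ligands, astroglia held 19.1% in WT and 10.4% in cKO, and glutamatergic neurons held 12.9% and 48.4%. Bmp3 alone gave 120 of the glutamatergic UMIs in WT and 648 in cKO, most of the latter in cluster 14, with 76 WT and 537 cKO cells. A larger share in 1 class lowers the shares of the others. The ependymal or choroid plexus cells held 10.9% and 6.73%, and GABAergic neurons held 4.62% and 3.03% although they were 26.6% and 26.3% of cells. Unnamed clusters held 33.9% in WT and 14.3% in cKO. After thinning, 9.43% of WT and 5.15% of cKO astroglia had a UMI of any ligand, against 0.914% and 0.601% of GABAergic neurons.

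**Figure D3:**
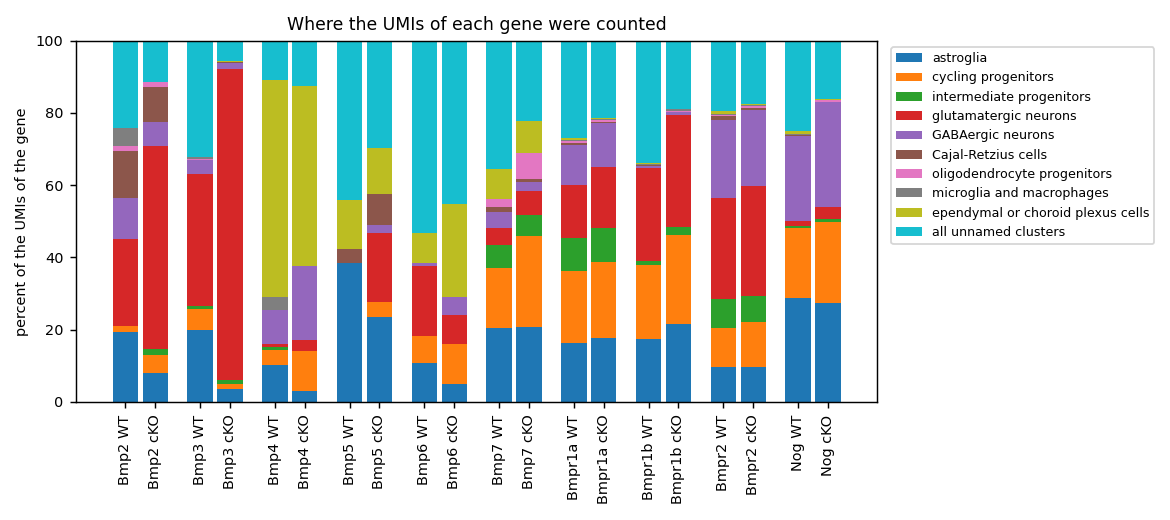
Percent of the UMIs of each gene (vertical axis, 0 to 100) that each class held, with a WT and a cKO bar for each gene. Bmp4 lies mostly in ependymal or choroid plexus cells (60.1% and 50%), cKO Bmp3 in glutamatergic neurons (86.2%), and the receptors are divided over many classes.

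Bmpr1a and Bmpr2 had UMIs in all 9 classes of both libraries, whereas Bmpr1b had none in WT oligodendrocyte progenitors and none in cKO Cajal-Retzius and ependymal or choroid plexus cells. Bmpr1a (ENSMUSG00000021796, chromosome 14, 34410734 to 34503341), the broadly used type I receptor, had 4564 and 4670 UMIs. Cycling progenitors held 77.4 CPM in WT (72.5 to 82.6) and 78.7 CPM in cKO (73.8 to 83.7). Astroglia held 71.7 CPM (66.7 to 77.1) and 80.6 CPM (75.2 to 86.3), and these 2 classes overlapped in each library. Intermediate progenitors followed at 65.0 and 62.8 CPM, then glutamatergic neurons at 33.7 and 34.4 CPM and GABAergic neurons at 25.1 and 27 CPM. The intervals of these last 3 did not overlap in either library, so the level was lower in neurons than in progenitors in both.

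Bmpr2 (ENSMUSG00000067336, chromosome 1, 59763400 to 59879014), the type II receptor, had another order. It was highest in glutamatergic neurons, at 106 CPM in WT (101 to 110) and 105 CPM in cKO (101 to 109). Intermediate progenitors held 91.7 and 83.2 CPM, GABAergic neurons 81.8 and 78.5 CPM, cycling progenitors 68.5 and 77.3 CPM, and astroglia 69.2 and 74.2 CPM. The ratio lay between 0.907 and 1.13 in these 5 classes. Over 26 clusters Bmpr2 ranged from 39.0 to 123 CPM in WT and from 46.1 to 120 CPM in cKO.

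Bmpr1b (ENSMUSG00000052430, chromosome 3, 141837136 to 142169425), a type I receptor of narrower use, was patchy. Cycling progenitors held 8.97 CPM in WT (7.34 to 10.9) and 10.2 CPM in cKO (8.46 to 12.1), and astroglia held 8.66 and 10.9 CPM. Of the 26 clusters with at least 50 cells in each library, the unnamed cluster 3 was highest in both, at 17.8 and 15.6 CPM. GABAergic neurons held 3 UMIs in WT and 4 in cKO, or 0.151 and 0.190 CPM, and intermediate progenitors held 0.764 and 1.58 CPM. Among glutamatergic neurons Bmpr1b lay in the cluster that was large in each library, with 118 of 132 WT UMIs in cluster 15 (15.6 CPM, 12.9 to 18.7) and 137 of 161 cKO UMIs in cluster 5 (17.1 CPM, 14.4 to 20.3). Cluster 14, the neurons with most Bmp3, had a Bmpr1b UMI in 0 of 76 WT cells (0% to 4.74%) and 0 of 537 cKO cells (0% to 0.685%) after thinning, and in 0% and 0.931% before it. These shares limit cells with a UMI, not cells that express the gene. The glutamatergic level was 6.67 CPM in WT and 7.04 CPM in cKO. Cluster 4 held 5 UMIs in WT and 18 in cKO, a ratio of 5.84 (2.09 to 20.1).

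Nog (ENSMUSG00000048616, chromosome 11, 89300638 to 89302332, minus strand) was highest in astroglia, followed by cycling progenitors, in both libraries. Astroglia held 62.2 CPM in WT (57.5 to 67.2) and 72.9 CPM in cKO (67.8 to 78.3). Cycling progenitors held 37.1 CPM (33.7 to 40.8) and 48.8 CPM (45.0 to 52.9), and GABAergic neurons 26.7 CPM (24.5 to 29) and 37.6 CPM (35.0 to 40.3). Intermediate progenitors held 2.29 and 3.15 CPM, and glutamatergic neurons 1.36 and 3.94 CPM. The order of astroglia, cycling progenitors and GABAergic neurons was the same in both libraries, and the intervals of these 3 did not overlap within a library. Ependymal or choroid plexus cells ranked between the last 2 in WT, at 28.9 CPM (18.3 to 43.4), and overlapped both. In cKO they were at 15.2 CPM (6.97 to 28.9).

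Within astroglia the septal cluster 17 was by far the highest in Nog, at 171 CPM in WT (152 to 191) and 158 CPM in cKO (141 to 176). Cluster 0 held 38.8 and 49.8 CPM, and cluster 22 held 42.9 CPM (35.7 to 51.1) and 67.6 CPM (52.4 to 85.9). Among GABAergic neurons Nog was highest in clusters 1 and 2, led by Prdm12 and Gm44643, at 39.3 and 44.3 CPM in WT and 55.1 and 60.9 CPM in cKO. Thus cluster 22 held less Bmp7 and more Nog in cKO than in WT, and both passed the limit there, where 5.72% of all genes passed on the lower side and 3.79% on the higher side.

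Nog was slightly higher in the cKO library across much of the tissue. Of 19 clusters with at least 50 cells in each library and at least 20 Nog UMIs, 16 had the higher level in cKO and 3 in WT. These clusters share the same libraries and are not separate observations, and the share of all genes that lean as far was not measured. By the same count, Bmpr1a was higher in cKO in 19 of 26 clusters and Bmpr2 in 14 of 26. The Nog ratio was 1.17 (1.05 to 1.30) in astroglia and 1.32 (1.16 to 1.49) in cycling progenitors. It was 1.41 (1.26 to 1.58) in GABAergic neurons and 2.88 (1.86 to 4.61) in glutamatergic neurons. None of these passed the limit on the log2(CPM + 5) scale. Free RNA held Nog at 9.06 CPM in WT compared with 20.8 CPM in cKO. With free RNA subtracted, the log2 ratio was 0.416 in GABAergic neurons and 0.497 in glutamatergic neurons, against 0.427 and 0.489 without.

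**Figure D4:**
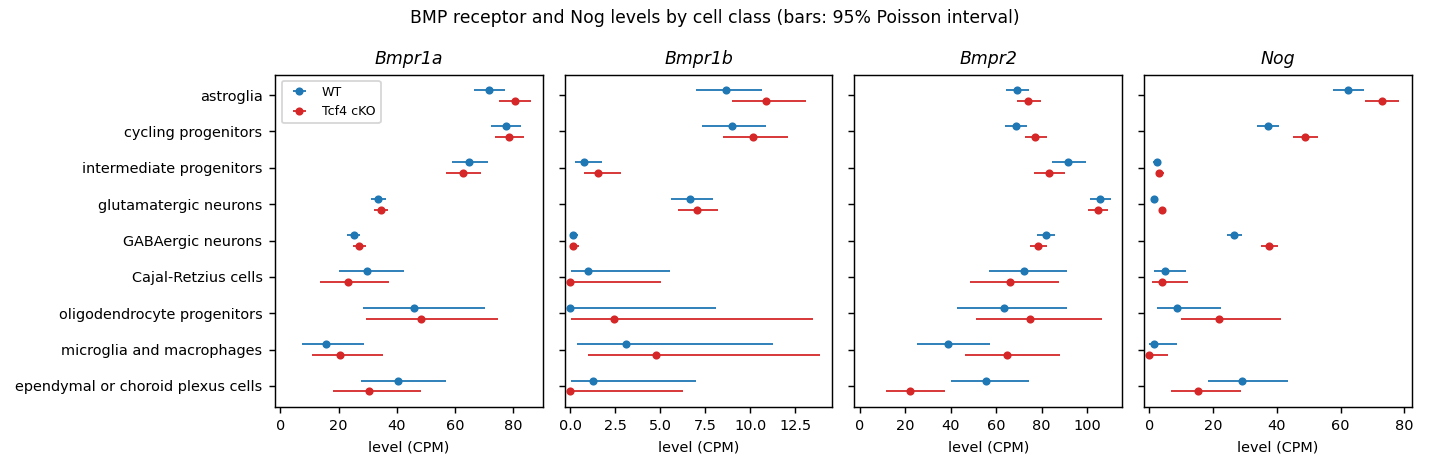
Levels of the 3 receptors and Nog in CPM (linear axes that differ by panel) by class, WT in blue and cKO in red, with 95% Poisson intervals. Bmpr1a is lower in neurons than in progenitors, Bmpr2 is highest in glutamatergic neurons (106 and 105 CPM), and Bmpr1b and Nog are low in intermediate progenitors.

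Some cells had a UMI of a type I receptor (Bmpr1a or Bmpr1b) together with a UMI of Bmpr2. At 3341 UMIs a cell, these made up 3.75% of all WT cells and 4.04% of all cKO cells, a share that is limited by capture. They were 5.14% and 6.46% of astroglia, 4.17% and 5.31% of cycling progenitors, 4.63% and 5.02% of intermediate progenitors, 4.49% and 3.67% of glutamatergic neurons, and 2% and 2.40% of GABAergic neurons.

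In each of astroglia, cycling progenitors, intermediate progenitors and GABAergic neurons, 0 of the 10 genes passed the limit. The background was 0.456% of genes higher and 2.21% lower in astroglia, and 0.241% and 0.28% in cycling progenitors. It was 0.644% and 0.944% in intermediate progenitors, and 0.384% and 0.13% in GABAergic neurons. Between 4 and 7 of the 10 genes had 20 UMIs in these 4 classes, so a count of 0 says little. In Cajal-Retzius cells 0 of the 2 genes with 20 UMIs passed, against 4.66% of all genes higher and 5.92% lower. Over all cells only Bmp3 passed, at 3.54 and 8.09 CPM, with 0.262% of genes higher and 0.394% lower. In oligodendrocyte progenitors, Bmp7 was the 1 gene higher of 3 with 20 UMIs, where 7.82% of all genes passed on that side and 7.19% on the lower side. In microglia and macrophages it was Bmpr2, at 39.0 CPM in WT (25.2 to 57.5) and 64.8 CPM in cKO (46.5 to 88.0), where the background was 7.48% higher and 11.2% lower.

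Single clusters gave a few more. Of the 26 with at least 50 cells in each library, cluster 14 had 3 genes higher (Bmp2, Bmp3 and Nog), where 5.41% of all genes were. Bmp3 was lower in cluster 17 (2.14% of genes lower) and higher in cluster 19 (4.01%), where Bmp6 was lower (4.85%). Bmp7 was lower in clusters 7 (0.722%) and 23 (2.9%) and higher in cluster 25 (2.82%). Nog was higher in cluster 21 (2.76%) and Bmpr1b in cluster 4 (2.31%). With the pair in cluster 22 given above and Bmpr2 in the microglia of cluster 28, the other 16 clusters had none.

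The ependymal or choroid plexus cells had the most genes past the limit, 1 higher (Bmp6) and 3 lower (Bmp4, Bmpr2 and Nog) of 6 with 20 UMIs. There 3.93% of all genes were higher and 23.6% lower, and the median log2 ratio of all genes was -0.27. Bmpr2 was at 55.4 CPM in WT (40.2 to 74.3) and 22 CPM in cKO (11.7 to 37.6), with no overlap. Nog was at 28.9 CPM (18.3 to 43.4) and 15.2 CPM (6.97 to 28.9), and Bmp6 had a ratio of 2.15 (0.918 to 5.31), so both intervals overlapped. The 12 markers of these cells summed to 234917 CPM in WT and 336960 CPM in cKO, mostly Ttr, and the 7 red cell markers to 19072 and 132 CPM. The part of these sums in the ratios was not tested.

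**Figure D5:**
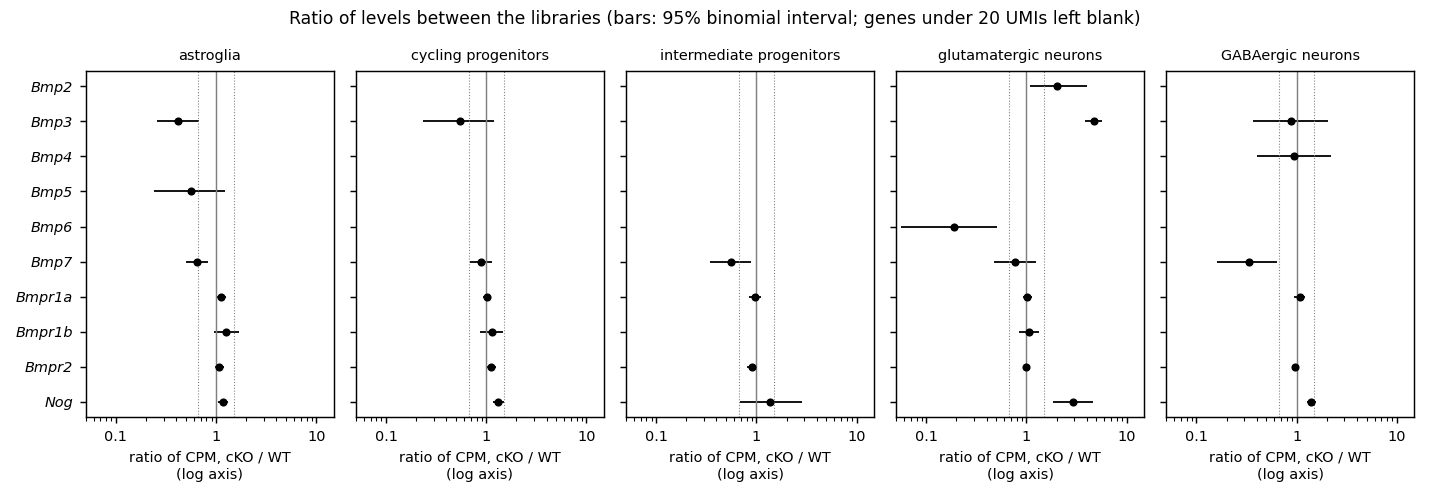
Ratio of CPM, cKO over WT, on a log axis for genes with at least 20 UMIs in 5 classes, with 95% binomial intervals; dotted lines mark 1.5-fold without a pseudocount. Bmpr1a and Bmpr2 lie near 1 in all 5 classes, Bmp3 lies above it in glutamatergic neurons (4.67) and below it in astroglia (0.420), and Nog lies above 1.

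The other genes of the pathway came from 5 lists with 77 further genes, some in 2 lists. In astroglia 3 of 49 with 20 UMIs passed the limit, all lower, against 2.21% of all genes lower. Without cluster 22 the count was 1. Fstl1, a follistatin-like secreted protein, was at 219 CPM in WT against 134 CPM in cKO. Sostdc1, a secreted antagonist of BMP and Wnt signals, was at 12.5 and 3.21 CPM, and in cluster 22, which held 122 of its 130 WT UMIs in astroglia, at 41.8 and 24.2 CPM. The third was Id3. The median log2 ratio was -0.03 over these 49 genes and -0.03 over all genes of astroglia.

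In glutamatergic neurons 5 of 45 were lower, against 1.5% of all genes, and 1 higher, against 1.41%. Acvr1, another type I receptor of BMPs, was at 46.7 CPM in WT compared with 22.3 CPM in cKO, a ratio of 0.478 (0.428 to 0.533). Grem1, a secreted BMP antagonist and the leading gene of the WT cluster 15, was at 13.7 and 1.44 CPM. Tmeff2, a transmembrane protein with follistatin domains, was higher at 5.15 and 12.5 CPM, and the others lower were Id2, Id4 (34.4 and 15.2 CPM) and Lef1 (33 and 18.0 CPM). This class holds clusters 5, 14 and 15, with 22, 76 and 586 WT cells and 885, 537 and 6 cKO cells. Levels of these pathway genes without those clusters are not given here. A change within neurons and a change in which clusters are present therefore cannot be told apart. In GABAergic neurons Sostdc1 alone of 48 passed, at 2.16 and 6.27 CPM, higher in cKO, as were 0.384% of all genes. In intermediate progenitors 3 of 42 were lower, Id1 (20.9 and 12.2 CPM), Id2 and Id3, against 0.944% of all genes. In cycling progenitors 0 of 47 passed, against 0.241% of all genes higher and 0.28% lower.

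Of the 4 genes of the Id family, which BMPs induce, Id1, Id2 and Id3 also passed the limit on the lower side in cluster 22, and Id4 did not. Id1 was there at 150 CPM in WT against 27.3 CPM in cKO, a ratio of 0.182 (0.118 to 0.268), and Id3 had a ratio of 0.304 (0.251 to 0.365). In all of cluster 22, 8 of 41 pathway genes were lower, against 5.72% of all genes, and 1 higher, against 3.79%. In the ependymal or choroid plexus cells Id1 was at 340 and 208 CPM, and 8 of 30 pathway genes were lower and 2 higher, on the background given above. Gdf5, a BMP-class ligand, was 1 of those higher there, at 23.9 and 45.7 CPM.

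Levels over all cells follow for the 3 most abundant genes of each list. Among other receptors and co-receptors, Neo1 was at 58.9 CPM in all WT cells and 57.3 CPM in all cKO cells, Acvr2b at 52.3 and 56.8 CPM, and Rgma at 41.3 and 37.0 CPM. Among intracellular regulators, Zeb2 was at 297 and 271 CPM, Nedd4l at 133 and 147 CPM, and Smad4, the shared SMAD partner, at 133 and 136 CPM. Among inhibitors and modulators, Tmeff1 was at 193 and 218 CPM, Fstl1 at 68.3 and 47.5 CPM, and Twsg1 at 29.9 and 28.9 CPM. Of target genes, Zic1 was at 504 and 480 CPM, Id2 at 266 and 104 CPM and Id4 at 179 and 145 CPM. Of other ligands, Gdf11 was at 17.9 and 18.3 CPM, Gdf5 at 1.52 and 1.36 CPM, highest in Cajal-Retzius cells, and Gdf10 at 0.561 and 0.366 CPM.

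Genes with a pattern like Bmp7 and Nog were ranked by Pearson's r of log2(CPM + 5), as a description. The ranking covered 10625 genes over the 28 clusters with at least 50 WT cells. That left out ependymal or choroid plexus cells (35 WT cells), oligodendrocyte progenitors (37) and cluster 33 (43), where the WT Bmp7 levels given above were highest. For Bmp7 the top genes were Thrsp (r = 0.879), Ndufc2 (0.839) and Axin2 (0.835), a feedback gene of Wnt signalling. Those genes thus do not describe its highest sources. For Nog they were Id4 (0.903), Prdm16os (0.898) and Fuz (0.895). These clusters share 1 library.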

How the data were processed

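Cells of the corticoseptal boundary were profiled with a 10x Genomics 3' protocol, per the labels' protocols. The authors deposited unnormalized UMI counts of every barcode, empty droplets included. Per the file headers these are from Cell Ranger 7.1.0, but version 2.1.1 with mm10 stands in the submitters' processing notes. How strand was handled is not given in the sources used here, so counts of genes that overlap a gene on the other strand (Bmp4, Bmp5, Bmp6, Bmpr1a) are uncertain. Gene positions came from GENCODE vM21, which matched 32158 of 32285 identifiers (99.6%).

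Cells needed 3348 (WT) or 3341 (cKO) UMIs, 500 genes and no more than 10% mitochondrial UMIs; 8964 and 10668 passed. Doublets were removed with scrublet in scanpy 1.11.5 at an expected rate of 6%, 330 in WT (3.68%) and 526 in cKO (4.93%). Both libraries were clustered together (2000 variable genes without BMP pathway genes and Tcf4, 30 components, 15 neighbours, Leiden resolution 1). Clusters were named from marker lists by rules settled after the clusters had been seen, and a difference from the authors' cell types may come from these names. Free RNA came from droplets of 10 to 100 UMIs, and its share from haemoglobin transcripts. With 1 library per group no test was run, since cells are not replicates. The genes, lists and rules were chosen with earlier results of these data known. Named genes were the 10 genes, pathway genes past the limit with 50 UMIs in the 5 large classes, the 3 most abundant of each list and the 3 most similar to ligands or Nog with 500 WT UMIs; other genes were named after their values were seen. The calculation of ratios and calls was tested on simulated data.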

Additional observations from a re-analysis of the deposited data

Results flagged for a closer look

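For 5 genes the difference between the libraries went one way in one set of cells and the other way in another, each past 1.5-fold on the log2(CPM + 5) scale. The difference between the sets was not tested in any of them, since each genotype had 1 library. The pairs are extremes over 11 sets with 20 UMIs for Bmp3, 4 for Bmp6, 22 for Bmp7, 35 for Bmpr2 and 25 for Nog. Classes and their own clusters both count as sets. The share of all genes that meet this rule was not measured, so the count of 5 has no background. Bmp3 had a log2 ratio of 1.59 in glutamatergic neurons and -1.08 in cluster 17, the septal astroglia, where its level was 21.1 CPM in WT and 7.36 CPM in cKO. Bmp7 had a log2 ratio of -1.18 in cluster 22 and 1.37 in cluster 25, an unnamed neuron cluster led by Gng8 without Trp73, from 5 UMIs in WT and 20 in cKO. Bmp6 had 0.868 in ependymal or choroid plexus cells, from 10 UMIs in WT and 16 in cKO with overlapping intervals, and -0.743 in cluster 19. In ependymal or choroid plexus cells 3.93% of all genes were higher and 23.6% lower. Bmpr2 had 0.667 in microglia and macrophages (cluster 28) and -1.16 in ependymal or choroid plexus cells. Nog had 1.05 in cluster 14, from 1 UMI in WT and 47 in cKO, and -0.746 in ependymal or choroid plexus cells.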

How the results depend on the processing

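No paired analysis was possible because the groups share fewer than 2 replicate numbers and no result comes from a test. Log2 ratios were rerun in the 5 large classes alone. Of the 10 genes, only Bmp3 in glutamatergic neurons was past the limit there, and its log2 ratio kept its sign under the alternatives run. The calls in ependymal or choroid plexus cells, oligodendrocyte progenitors and microglia and macrophages have no alternative. In the rerun classes 354 log2 ratios moved by less than their interval and 33 by more. Of source shares, 217 moved by less and 119 by more. Of BMP genes past 1.5-fold, astroglia had 0, but 1 with the UMI minimum doubled, at resolution 0.5 or 2 or with unnamed clusters joined. They had 1 with a pseudocount of 1 CPM, 1 without cluster 22 (Bmp3) and 2 with shared clusters weighted equally. Intermediate progenitors and GABAergic neurons had 0, but 1 with a pseudocount of 1 CPM. Glutamatergic neurons had 1, but 2 with the UMI minimum doubled, doublets kept or shared clusters weighted equally, 3 with a pseudocount of 1 CPM and 0 without clusters 5, 14 and 15. Of the other pathway genes, astroglia had 3, but 1 at resolution 0.5 or without cluster 22 and 5 with a pseudocount of 1 CPM. Cycling progenitors had 0, but 1 with the UMI minimum doubled, BMP genes among the variable genes, a pseudocount of 1 CPM or shared clusters weighted equally. Intermediate progenitors had 3, but 1 with doublets kept and 5 with a pseudocount of 1 CPM. GABAergic neurons had 1, but 2 with the UMI minimum doubled or at resolution 0.5, 0 at resolution 2 and 3 with a pseudocount of 1 CPM. Of ligand UMIs in named classes, astroglia held 29% in WT, but 41.9% with the UMI minimum doubled, 33.9% with doublets kept, 38.5% at resolution 0.5, 32.2% with unnamed clusters joined and 7.86% with classes weighted equally. In cKO they held 12.1%, but 15.9%, 17.8%, 18.3%, 16.8% and 4.25% under the same settings and 16.6% at a mitochondrial limit of 5%. The causes were not tested. Leaving out cluster 22 or clusters 5, 14 and 15 was chosen after seeing the data. Clusters were not renumbered across settings, so values of single clusters have no alternative. With 1 library per group, no replicate could be left out.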
